A study of Rattus norvegicus with 42 samples.

Results

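Bile acid synthesis, transport and control was read here through 10 liver genes, namely Cyp7a1, Cyp8b1, Cyp27a1, Cyp7b1, Baat, Slc27a5, Slc10a1, Abcb11, Nr0b2 and Nr1h4. They were chosen by name for their known role, at a time when earlier results of these data were known. All 10 were among the 26258 genes named in the table of serine 2-phosphorylated RNA polymerase II (pSer2 Pol2), the elongating form of the polymerase, and 9 were among the 22929 genes of the RNA count table. Cyp8b1 was not analysed at the RNA level here. Of 3981 regions bound by the glucocorticoid receptor (GR), 20 lay within 50 kb of a transcription start of one of these genes, and 7 of the 10 genes had at least 1 such region. No GR region lay within 50 kb of Cyp8b1, Cyp7b1 or Slc10a1.

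The livers came from adrenalectomised male Sprague Dawley rats, which lack their own source of corticosterone (CORT), so the lack of adrenal glands was shared by every group, vehicle included. Per the study's methods the rats recovered from surgery with dexamethasone and with CORT in the drinking water, which was withdrawn before the infusion. CORT complexed with cyclodextrin (0.0035 g in 1 ml of saline) or vehicle (VEH) was then infused for 3 h. In the pulsatile pattern (PULS) the pump ran at 1 ml/h for the opening 20 min of each hour, and in the constant pattern (CONS) it ran at 0.333 ml/h after a brief faster start that cleared the lines of air. ChIP-Seq of GR and of pSer2 Pol2 had 2 libraries for each of 5 groups, and each library pooled 6 rats: PULS at 140 min, the pulse peak (PEAK_140), PULS at 180 min, the pulse nadir (NADIR_180), CONS at the same times (CONS_140 and CONS_180), and VEH. The VEH group held 1 pulsatile vehicle library from 140 min and 1 from 180 min, so it mixes both times and serves as the control for all 4 CORT groups. RNA-Seq was done at 180 min only, with 3 samples each of PULS CORT, PULS VEH, CONS CORT and CONS VEH.

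Bile acids are made from cholesterol in hepatocytes, either by a route that opens with Cyp7a1 in the endoplasmic reticulum or by an alternative route that opens with the mitochondrial enzyme Cyp27a1 and runs on through Cyp7b1. Cyp8b1 adds the hydroxyl group that sets the share of cholic acid, and Slc27a5 and Baat join the finished acid to taurine or glycine. Slc10a1 takes conjugated bile acids up from portal blood, and Abcb11 pumps them into bile. The bile acid receptor Nr1h4 (FXR) induces Nr0b2 (SHP), a corepressor that lowers Cyp7a1 transcription, which closes a feedback loop. Glucocorticoids act through GR, which binds DNA when the hormone is present.

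The promoters of 4 members are shown because the results below turn on these genes: pSer2 Pol2 over Nr0b2, Cyp27a1 and Slc27a5 rose together in CONS_140, and over Baat it fell in PEAK_140. Promoter sequences of 6 of the 10 members were matched in RefSeq (assembly GRCr8), and the stretches are the 250 bases before the start. Their coordinates belong to GRCr8 and were not compared with the rn6 coordinates of the ChIP-Seq regions. Capitals mark the motif letters found. Nr0b2 is at chr5:151062910-151063159 on the plus strand, Cyp27a1 at chr9:83713282-83713531 on the plus strand, Slc27a5 at chr1:82699336-82699585 on the minus strand, and Baat at chr5:68656138-68656387 on the minus strand.
Nr0b2: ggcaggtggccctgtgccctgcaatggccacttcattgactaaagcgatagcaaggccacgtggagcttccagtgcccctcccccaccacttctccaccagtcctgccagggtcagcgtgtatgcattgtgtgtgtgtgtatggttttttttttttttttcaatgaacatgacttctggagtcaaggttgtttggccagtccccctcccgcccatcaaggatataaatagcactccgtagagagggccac
Cyp27a1: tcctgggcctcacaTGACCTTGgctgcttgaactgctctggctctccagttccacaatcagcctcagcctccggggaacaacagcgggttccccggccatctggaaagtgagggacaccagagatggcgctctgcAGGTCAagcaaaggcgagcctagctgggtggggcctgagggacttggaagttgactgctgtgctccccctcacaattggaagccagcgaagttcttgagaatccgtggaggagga
Slc27a5: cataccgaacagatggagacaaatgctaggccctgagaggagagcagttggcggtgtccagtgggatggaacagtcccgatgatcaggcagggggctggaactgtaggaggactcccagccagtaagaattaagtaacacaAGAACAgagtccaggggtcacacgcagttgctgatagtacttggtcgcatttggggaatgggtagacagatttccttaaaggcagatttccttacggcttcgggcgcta
Baat: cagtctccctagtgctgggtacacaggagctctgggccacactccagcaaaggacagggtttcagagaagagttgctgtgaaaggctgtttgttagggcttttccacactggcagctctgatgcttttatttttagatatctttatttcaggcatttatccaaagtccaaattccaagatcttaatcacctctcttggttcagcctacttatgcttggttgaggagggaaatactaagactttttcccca

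Both strands were searched for a full glucocorticoid response element (GNACA and TGTNC 3 bases apart, or the stricter AGAACA and TGTTCT 3 bases apart), its single arm AGAACA, the NR5A2 letters CAAGGTCA, the direct repeat of AGGTCA with 1 base between, the inverted repeat of AGGTCA and TGACCT with 1 base between, the D-box letters TTATGTAA and the single AGGTCA. The single AGGTCA lies within several of the others and was added after the data were seen. No promoter of the 4 held a full response element, which the looser letters gave in 0.373% and the stricter letters in 0.012% of 33469 promoters. The Slc27a5 stretch held AGAACA at bases -109 to -104, letters found in 17.5% of all promoters. The Cyp27a1 stretch held CAAGGTCA on the other strand at -236 to -229, found in 1.33%, and AGGTCA at -115 to -110, found in 14.1%. Neither Nr0b2 nor Baat held any of the motifs, and the direct repeat (0.0508%), the inverted repeat (0.0269%) and the D-box (0.828%) were in none of the 4. A letter match is a description of the window and not a binding site.

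At 180 min, CONS CORT moved more of these RNAs past the threshold against its own vehicle than PULS CORT did, and the direction depended on the gene. Under CONS, RNA for the alternative-route enzyme Cyp27a1 and the corepressor Nr0b2 rose, while RNA for Cyp7a1, Cyp7b1 and the conjugating enzyme Baat fell. Under PULS, only Cyp27a1 passed, upward. The uptake carrier Slc10a1, the export pump Abcb11, the receptor Nr1h4 and the ligase Slc27a5 passed in neither pattern. A gene passed at a Benjamini-Hochberg adjusted p under 0.05 over all tested genes together with a change over 1.5-fold. By that rule (edgeR quasi-likelihood test) 1 of 9 members passed in PULS CORT against PULS VEH beside 4.23% of 14092 genes, and 5 of 9 passed in CONS CORT against CONS VEH beside 9.2% of genes. The median log2 change of the 9 was 0.27 under PULS and -0.22 under CONS, against -0.01 for all genes in each. The 5 calls under CONS became 2 without CONS CORT replicate 1 or 3 and 3 without CONS VEH replicate 1, and 6 without CONS CORT replicate 2, where Nr1h4 passed as well. RNA from a whole liver piece cannot tell fewer cells of a type from less RNA per cell.

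Cyp7a1, the rate-limiting enzyme of the main route, was read as CPM, counts scaled to a common library size after TMM scaling. Its levels were 27.8, 66.4 and 30.98 CPM in CONS CORT against 81.3, 85.1 and 67.7 CPM in CONS VEH. The groups did not overlap, but CONS CORT replicate 2 lay just below the lowest vehicle sample. The log2 change was -0.89 ± 0.27 (SE, adjusted p = 0.0417, edgeR), 1.85-fold lower. In PULS CORT the levels were 46.8, 63.4 and 84.2 CPM and in PULS VEH 53.9, 41.7 and 65.1 CPM, so these groups overlapped, with a log2 change of 0.27 ± 0.27 (adjusted p = 0.644). Every CONS VEH sample stood above every PULS VEH sample, by 0.54 ± 0.27 on the log2 scale (adjusted p = 0.558). The CONS call was lost without CONS CORT replicate 1 or 3 and without any 1 of the CONS VEH samples, and also when only the 2 groups compared were fitted. Over all alternatives the change lay between -1.40 and -0.67, with an adjusted p of up to 0.175.

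Cyp27a1, the sterol 27-hydroxylase, was higher in every CORT sample than in every sample of its own vehicle. It read 260.7, 231 and 201 CPM in PULS CORT against 119.2, 155 and 143 CPM in PULS VEH, a log2 change of 0.74 ± 0.14 (adjusted p = 0.00536, edgeR). In CONS CORT it read 365, 289 and 338 CPM against 173, 172 and 201 CPM in CONS VEH, a change of 0.86 ± 0.14 (adjusted p = 0.000481). Cyp27a1 thus rose 1.66-fold and 1.82-fold, and these 2 calls held in every alternative run. Cyp7b1, the oxysterol 7-hydroxylase that follows it in the alternative route, went the other way under CONS, with 69.6, 93.3 and 62.8 CPM against 114.0, 118 and 119.6 CPM. The fall was 0.63 on the log2 scale (-0.63 ± 0.14, adjusted p = 0.0073, edgeR), 1.55-fold, and it did not pass without CONS CORT replicate 1 or 3. Under PULS, Cyp7b1 read 119.0, 113 and 111 CPM against 120.6, 163 and 154 CPM in vehicle, with -0.35 ± 0.14 (adjusted p = 0.177).

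Baat, which conjugates bile acids to amino acids, fell under CONS. Its 3 CONS CORT samples read 414, 458 and 408 CPM and its 3 CONS VEH samples 679.7, 738 and 732 CPM. The groups lay far apart compared with their SDs of 27.3 and 32.1 CPM, and the change was -0.75 ± 0.11 on the log2 scale (adjusted p = 0.000224, edgeR), 1.68-fold lower, a call that held in every alternative run. Under PULS, Baat read 526, 576 and 564 CPM against 632, 560.05 and 647 CPM, which overlapped (-0.14 ± 0.11, adjusted p = 0.52). Slc27a5, which activates bile acids with coenzyme A before Baat acts, varied widely among replicates. It ran from 119.5 to 311 CPM in PULS VEH and from 224 to 390.4 CPM in PULS CORT, and its changes were 0.41 ± 0.27 under PULS (adjusted p = 0.424) and 0.40 ± 0.27 under CONS (adjusted p = 0.394).

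The transporters moved little. Slc10a1 read 265 to 374 CPM over the 12 samples, with a log2 change of 0.16 ± 0.11 under PULS (adjusted p = 0.473) and -0.22 ± 0.11 under CONS (adjusted p = 0.23). All its PULS CORT samples stood above PULS VEH, and all its CONS CORT samples stood below CONS VEH. The difference between these responses did not pass (-0.38 ± 0.16, adjusted p = 0.323, edgeR). Abcb11 read 975 to 1531 CPM, with 0.27 ± 0.12 under PULS (adjusted p = 0.209) and 0.15 ± 0.12 under CONS (adjusted p = 0.466). All 3 Abcb11 samples of CONS CORT (1456 to 1531 CPM) stood above those of CONS VEH (1230.1 to 1414 CPM). Likewise all 3 of PULS CORT (1216 to 1393 CPM) stood above those of PULS VEH (975 to 1174 CPM). The differences were near 1.11-fold under CONS and 1.20-fold under PULS and did not pass.

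Among the control genes, Nr0b2 had the lowest counts of any member, 5 to 129 reads a sample, so its values are the least precise. It read 26.2, 8.47 and 17.9 CPM in CONS CORT against 5.04, 9.67 and 5.61 CPM in CONS VEH. One CORT sample lay within the vehicle range, and the change was 1.39 ± 0.42 on the log2 scale (adjusted p = 0.0369, edgeR), 2.62-fold. This call was lost without CONS CORT replicate 1 or 3 or CONS VEH replicate 1 or 3, with an adjusted p of up to 0.191 over all alternatives. In PULS CORT the levels were 10.0, 8.39 and 4.70 CPM against 4.70, 0.943 and 5.19 CPM, a change of 1.12 ± 0.51 (adjusted p = 0.237). Nr1h4, the receptor above Nr0b2 in the feedback loop, read 209.7, 235 and 206 CPM in CONS CORT and 386, 297 and 258 CPM in CONS VEH. The groups did not overlap and the adjusted p was 0.025, but its change of -0.53 ± 0.15 (1.45-fold lower) stayed under the 1.5-fold limit. Under PULS, Nr1h4 changed by -0.32 ± 0.15 (adjusted p = 0.238).

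**Figure D1:**
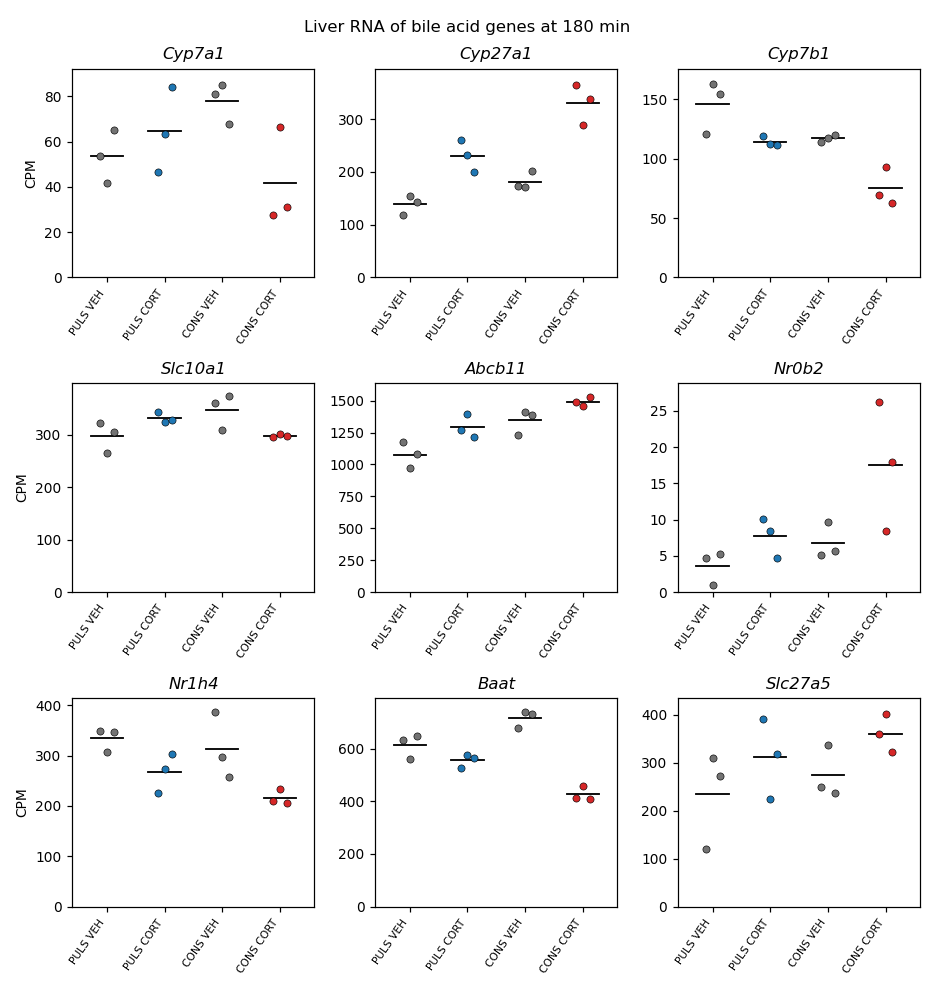
RNA level (CPM, linear axis from 0, scale differing by panel) of the 9 members with RNA counts at 180 min, each point 1 sample and each bar the mean of 3. Baat in CONS CORT (408 to 458 CPM) lies apart from the other groups, Cyp27a1 is higher in both CORT groups than in their vehicles, and for Cyp7a1 1 of the 3 CONS CORT samples (66.4 CPM) lies close to the vehicle samples.

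The difference between the patterns was tested directly, and no member passed in the main test. The response to CONS minus the response to PULS passed in 0 of 9 members and in 0.0284% of genes (edgeR), with 3 members and 12.4% of genes at an unadjusted p under 0.05. The strongest were Baat at -0.61 ± 0.15 on the log2 scale (adjusted p = 0.111) and Cyp7a1 at -1.16 ± 0.38 (adjusted p = 0.212). The Baat difference passed with DESeq2 (adjusted p = 0.002) and, in edgeR, without CONS VEH replicate 1. The Cyp7a1 difference passed without the low count filter (adjusted p = 0.0497) and without CONS CORT replicate 2 (adjusted p = 0.0352). Whether these 2 genes count as responding differently to the patterns therefore depends on the tool, filter or samples used, and for the other members no setting gave such a call. The vehicle groups were compared too. CONS VEH against PULS VEH passed in 0 of 9 members and 0% of genes (edgeR), with 3 members and 1286 genes (9.13%) at an unadjusted p under 0.05. Every CONS VEH sample of Cyp7a1, Cyp27a1, Abcb11 and Baat lay above every PULS VEH sample, as was so for 7.22% of genes, and every CONS VEH sample of Cyp7b1 lay below, as for 6.45% of genes. CONS CORT against PULS CORT passed in 0 of 9 members and 0.887% of genes, with 5 members and 11% of genes at an unadjusted p under 0.05. There Cyp27a1 was 0.51 ± 0.14 higher (adjusted p = 0.0947), Cyp7b1 was lower by -0.60 ± 0.14 (adjusted p = 0.0587) and Baat was lower by -0.39 ± 0.11 (adjusted p = 0.123). Cyp7b1 passed there with DESeq2 and without the low count filter, and without CONS CORT replicate 2 both Cyp7b1 and Cyp7a1 passed.

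Elongating polymerase over these genes passed the test against vehicle at 140 min only, though no member passed between the times themselves. In CONS_140, pSer2 Pol2 rose over Cyp7a1, Cyp27a1, Nr0b2 and Slc27a5, that is over a gene of each route, the corepressor and the ligase. In PEAK_140 it rose over Cyp27a1 and fell over Baat. At 180 min no member passed in either pattern in the main test, but some settings gave calls in CONS_180. Cyp27a1, Nr0b2 and Slc27a5 passed with quantile normalization, and Cyp27a1 also with library medians set equal, all upward. Among the regions above the median mean, Baat passed, downward. The values are log2 normalised tags over the opening 10 kb of a gene or over the whole gene where shorter, and each gene was read from its longest region, or, where regions were equally long (Cyp7b1 and Nr1h4), from the one with the higher mean over all libraries. Against VEH (limma), 2 of 10 members passed in PEAK_140 beside 0.961% of 16136 genes, 4 of 10 in CONS_140 beside 0.806%, 0 in NADIR_180 beside 0.0062%, and 0 in CONS_180 beside 0.223%. The number of members at an unadjusted p under 0.05 was 7, 5, 2 and 6 in that order, beside 4.91%, 6.04%, 1.41% and 2.91% of genes. The 4 comparisons share the same 2 VEH libraries, so they are not independent of each other.

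Cyp7a1 (chr5:19358734-19368431, rn6, minus strand) had 8.33 and 7.73 in the VEH libraries and 10.45 and 10.11 in CONS_140, in log2 normalised tags. The PEAK_140 libraries had 8.57 and 9.46, the NADIR_180 libraries 8.44 and 7.96, and the CONS_180 libraries 9.22 and 9.71. PEAK_140 and both CONS groups lay above VEH without overlap, and the nadir overlapped VEH. The log2 difference from VEH was 2.25 ± 0.39 in CONS_140 (SE, adjusted p = 0.0211, limma), 0.98 ± 0.39 in PEAK_140 (adjusted p = 0.722), 0.17 ± 0.39 in NADIR_180 (adjusted p above 0.999) and 1.43 ± 0.39 in CONS_180 (adjusted p = 0.38). So at 180 min under CONS the polymerase signal over Cyp7a1 stood above VEH in both libraries while its RNA stood below CONS VEH in all 3 samples. The 2 assays used different vehicle groups, the labels do not say whether they shared rats, and the relation between them was not tested.

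Cyp27a1 (chr9:81968332-81978332, plus strand) carried more pSer2 Pol2 at the peak and under CONS than in VEH. Its libraries read 7.36 and 6.62 in VEH, 8.89 and 8.81 in PEAK_140, 7.29 and 7.73 in NADIR_180, 9.67 and 9.26 in CONS_140 and 8.72 and 8.22 in CONS_180. All CORT groups but the nadir lay clear of VEH. The differences from VEH were 1.86 ± 0.36 in PEAK_140 (adjusted p = 0.0366), 2.48 ± 0.36 in CONS_140 (adjusted p = 0.0089), 0.52 ± 0.36 in NADIR_180 (adjusted p above 0.999) and 1.49 ± 0.36 in CONS_180 (adjusted p = 0.249). In linear terms the CONS_140 signal was 5.57-fold and the PEAK_140 signal 3.63-fold that of VEH. Over its partner Cyp7b1 (chr2:102861257-102871257, minus strand) the signal stayed near the floor of the scale, 0.71 to 1.12 in all 10 libraries, although its RNA was counted at 62.8 to 163 CPM. The polymerase data therefore give no reading of a change at Cyp7b1. Its other annotated start (chr2:102828745-102838745) was lower still, at -1.13 to -0.62.

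Cyp8b1 (chr8:130548418-130550388, minus strand), the 12-hydroxylase, had 7.46 and 7.20 in VEH, 5.71 and 5.24 in PEAK_140, 6.89 and 7.502 in NADIR_180, 7.47 and 6.63 in CONS_140 and 6.16 and 4.92 in CONS_180. Its lowest libraries were those of PEAK_140 and CONS_180, which lay below VEH without overlap, and those of NADIR_180 and CONS_140 overlapped VEH. None of these passed in the main test: the difference from VEH was -1.85 ± 0.47 in PEAK_140 (adjusted p = 0.13, limma) and -1.79 ± 0.47 in CONS_180 (adjusted p = 0.34). The PEAK_140 fall passed once library medians were set equal. Cyp8b1 was also the member whose time course differed most between patterns, at -3.23 ± 0.66 for the peak-to-nadir difference of PULS minus the difference between the same times of CONS, again without passing (adjusted p = 0.138).

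Baat (chr5:64768401-64777368, minus strand) had 11.28 and 11.37 in VEH and 9.84 and 10.24 in PEAK_140. The NADIR_180 libraries read 10.77 and 10.82, CONS_140 10.59 and 10.48, and CONS_180 10.67 and 10.70. All 8 CORT libraries lay below both VEH libraries. The PEAK_140 difference was -1.29 ± 0.24 (adjusted p = 0.0321, limma), 2.44-fold lower, and the others were -0.53 in NADIR_180, -0.79 in CONS_140 and -0.64 in CONS_180, each ± 0.24, with adjusted p of 0.343 or more. Among the regions above the median mean, the falls in CONS_140 and CONS_180 passed, and that in CONS_140 also passed with quantile normalization. Slc27a5 (chr1:65576535-65586535, plus strand) had 7.19 and 6.71 in VEH, 6.79 and 7.25 in PEAK_140, 8.21 and 8.27 in NADIR_180, 9.25 and 8.66 in CONS_140 and 8.49 and 7.91 in CONS_180. It was thus at the VEH level at the pulse peak and above it in the other 3 groups. The CONS_140 difference was 2.01 ± 0.37 (adjusted p = 0.0293) and the NADIR_180 difference 1.29 ± 0.37 (adjusted p above 0.999).

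Nr0b2 (chr5:151776004-151779319, plus strand) had 7.23 and 6.69 in VEH, 7.97 and 8.10 in PEAK_140, 7.54 and 7.65 in NADIR_180, 9.84 and 9.40 in CONS_140 and 8.42 and 7.83 in CONS_180. All 8 CORT libraries stood above both VEH libraries. The CONS_140 difference of 2.66 ± 0.35 (adjusted p = 0.0055, limma), 6.31-fold, was the highest of any member in any comparison with VEH, and PEAK_140 differed by 1.07 ± 0.35 (adjusted p = 0.404). With quantile normalization the PEAK_140 difference passed. Nr1h4 (chr7:30095132-30105132, minus strand) ran lowest at the peak, with 7.15 and 7.55 against 8.69 and 8.40 in VEH (-1.20 ± 0.34, adjusted p = 0.233). The Nr1h4 difference in CONS_140 (-0.69 in the main test) passed with quantile normalization only. Its other annotated start (chr7:30152056-30162056) read 4.06 to 5.36 over all libraries, and no comparison passed there. The transporters Slc10a1 (8.45 to 9.47 over the 10 libraries) and Abcb11 (7.51 to 8.70) varied least after Cyp7b1, and the farthest from VEH were Slc10a1 in PEAK_140 (-0.73 ± 0.29, adjusted p = 0.754) and Abcb11 in NADIR_180 (-0.76 ± 0.32, adjusted p above 0.999).

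**Figure D2:**
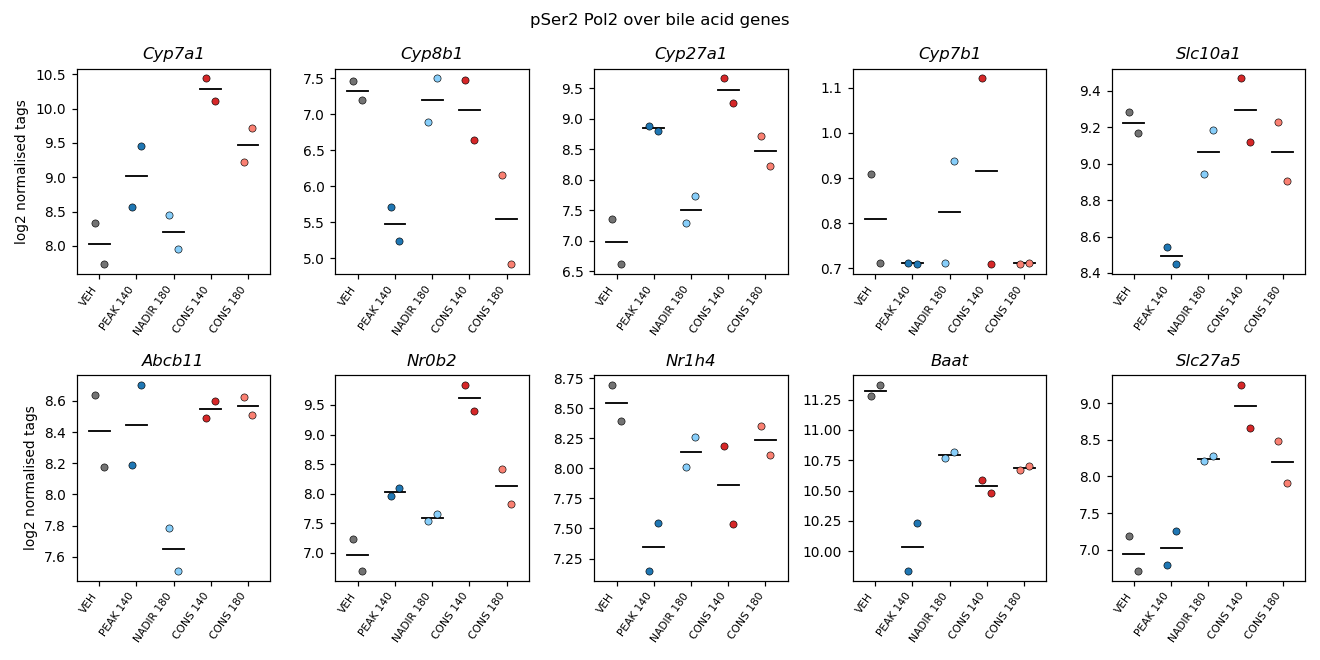
pSer2 Pol2 over the 10 members in log2 normalised tags, each point 1 library of 6 pooled rats and each bar the mean of 2, with y axes that differ by panel and do not start at 0. In CONS_140 Cyp7a1, Cyp27a1, Nr0b2 and Slc27a5 lie above VEH, Baat and Cyp8b1 have their lowest means in PEAK_140, and the Cyp7b1 panel spans only 0.71 to 1.12.

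These pSer2 Pol2 calls rest on 2 libraries a group. Leaving out any 1 of the PEAK_140 or VEH libraries removed both PEAK_140 calls. Without VEH replicate 2 or CONS_140 replicate 1, none of the 4 CONS_140 calls remained, and Cyp7a1 and Slc27a5 also lost theirs without VEH replicate 1. Without CONS_140 replicate 2, in contrast, 5 members passed.

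When the CORT groups were compared directly with each other, no member passed the same rule (limma). PEAK_140 against NADIR_180 passed in 0 of 10 members beside 0.477% of genes, with 6 members and 5.52% of genes at an unadjusted p under 0.05. CONS_180 against NADIR_180 passed in 0 beside 0.18%, with 4 members and 2.35% of genes at that unadjusted level. PEAK_140 against CONS_140 passed in 0 beside 0.0186%, with 5 members and 8.82% of genes, and CONS_140 against CONS_180 in 0 beside 0%, with 3 members and 3.05% of genes. The difference of the time courses passed in 0 of 10 beside 0.0558% of genes, with 2 members and 6.59% of genes at the unadjusted level. PEAK_140 was below CONS_140 over all 10 members in means and over 7 of the 10 without overlap, beside 20.5% of all genes without overlap in that direction and a median of -0.26 over all genes. The farthest were Slc27a5 (-1.93 ± 0.37, adjusted p = 0.0805) and Nr0b2 (-1.59 ± 0.35, adjusted p = 0.132). Without CONS_140 replicate 2, Cyp8b1, Slc10a1, Nr0b2 and Slc27a5 passed in PEAK_140 against CONS_140, Nr0b2 in CONS_140 against CONS_180, and Cyp8b1, Slc10a1 and Slc27a5 in the difference of the time courses. Among the regions above the median mean, Nr0b2 and Slc27a5 passed in PEAK_140 against CONS_140 and Baat in PEAK_140 against NADIR_180, and with library medians set equal Slc27a5 passed in PEAK_140 against CONS_140 and Cyp8b1 for the time courses. Cyp27a1 passed in PEAK_140 against NADIR_180 with medians set equal and with quantile normalization.

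**Figure D3:**
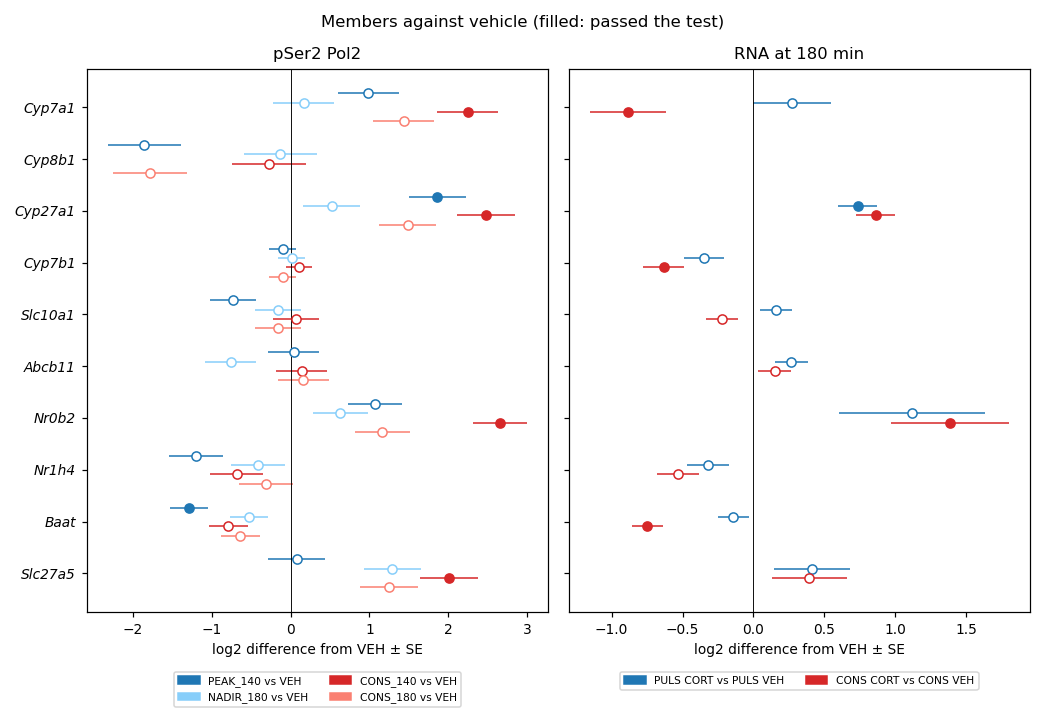
Log2 difference from vehicle with its SE (bars) for each member, pSer2 Pol2 at left (4 CORT groups against VEH, n = 2 libraries a group) and RNA at right (n = 3 samples a group), filled where the test was passed. Cyp27a1 and Nr0b2 lie right of 0 in all 6 comparisons, Baat lies left of 0 in all 6, and Cyp7a1 lies right of 0 in every pSer2 Pol2 comparison and at -0.89 in RNA under CONS.

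GR binding near the members was high at the pulse peak and at both times of CONS, and low at the pulse nadir. Nearly all of the 20 regions gained tags over VEH in the former 3 groups. Against VEH (limma), 17 of 20 regions passed in PEAK_140, 16 in CONS_140, 17 in CONS_180 and 1 in NADIR_180, all upward. The authors built the 3981 regions by merging the peaks called in the groups, and few peaks came from VEH or NADIR_180. Regions thus entered mostly through groups where GR was high, so a gain over VEH or the nadir was largely set by that choice. The 17 in CONS_180 became 11 without either VEH library or without CONS_180 replicate 2, and the 1 in NADIR_180 became 0 without VEH replicate 2 or NADIR_180 replicate 1 and 4 without NADIR_180 replicate 2. Over all 3981 regions the shares were 80.5%, 65.1%, 68.2% and 7.79%, so these genes' regions are not set apart from GR regions in general. The median log2 difference of the 20 was 3.96 in PEAK_140 (4.17 over all regions), 4.32 in CONS_140 (3.38), 3.88 in CONS_180 (3.46) and 1.29 in NADIR_180 (0.84). Once library medians were set equal, 1 of 20 passed in each of PEAK_140, CONS_140 and CONS_180. That setting removes a gain shared by all regions by construction, so it cannot tell shared GR binding from a difference between libraries. Of the authors' own peak lists, that of PEAK_140 overlapped 17 of the 20 regions (80.6% of all regions), CONS_180 14 (61%), CONS_140 10 (43.3%), and NADIR_180 and VEH none (1.81% and 2.91%). The regions were merged from these same lists, so the overlap restates how they were chosen and is no separate check.

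The strongest region of the set lay 3864 bases after the Nr0b2 start, at the end of the gene (chr5:151779556-151780181, rn6), and ranked 38 of 3981 by its mean. It read 2.88 and 0.70 log2 normalised tags in VEH, 7.33 and 7.58 in PEAK_140, 3.52 and 4.03 in NADIR_180, 7.66 and 7.52 in CONS_140 and 6.83 and 6.94 in CONS_180. The peak and both CONS groups stood together, well above both nadir libraries. The PEAK_140 difference from VEH was 5.67 ± 0.61 (adjusted p = 8.67e-05, limma) and CONS_180 exceeded NADIR_180 by 3.11 ± 0.61 (adjusted p = 0.00453). A second region covered the Nr0b2 promoter, centred 251 bases before the start (chr5:151775368-151776138). It read -0.51 and 1.21 in VEH, 5.06 and 4.61 in PEAK_140, 5.83 and 5.31 in CONS_140 and 4.48 and 4.85 in CONS_180, but 3.97 and -0.27 in the 2 nadir libraries. With the nadir so split, CONS_180 against NADIR_180 did not pass there (2.81 ± 1.20, adjusted p = 0.078), while PEAK_140 against VEH did (4.49 ± 1.20, adjusted p = 0.00793). A value below 0 lies at the low end of this scale, which does not convert exactly to tag counts.

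Cyp27a1 had 6 of the 20 regions, the most of any member, of which 5 lay in intron 1 and 1 lay between genes, 42261 bases after the start. The region 3025 bases after the start (chr9:81971035-81971679) read 2.33 and 2.08 in VEH, 5.41 and 4.80 in PEAK_140, 2.94 and 2.93 in NADIR_180, 3.94 and 4.00 in CONS_140 and 4.38 and 4.59 in CONS_180. It kept tags in VEH and at the nadir, and its PEAK_140 difference of 2.90 ± 0.47 (adjusted p = 0.000595, limma) was below the median of all regions. CONS_180 exceeded NADIR_180 by 1.55 ± 0.47 (adjusted p = 0.0248). The other regions read 4.33 to 5.72 in PEAK_140, apart from the one at 9239 bases, where the PEAK_140 libraries split at -0.68 and 2.03 and the CONS_140 libraries read 3.29 and 3.09.

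Cyp7a1 had a strong region 38998 bases from its start, between genes (chr5:19329121-19329746), and a weak one in its intron 1, 280 bases from the start (chr5:19367839-19368464). The distant region read -0.63 and -0.82 in VEH, 5.87 and 5.68 in PEAK_140, 1.49 and -0.40 in NADIR_180, 5.25 and 5.27 in CONS_140 and 4.15 and 4.67 in CONS_180. It went from below 0 in VEH to among the highest levels of the set at the peak (6.50 ± 0.68, adjusted p = 7.58e-05, limma), and CONS_180 exceeded the nadir by 3.87 ± 0.68 (adjusted p = 0.00306). The near region reached 2.65 and 2.28 in PEAK_140 and was at -0.50 and -0.43 at the nadir. That a region lies within 50 kb of a gene does not show that it acts on the gene.

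For the conjugation genes, Slc27a5 had a region 19710 bases after its start, at the end of another transcript (chr1:65595933-65596558). It read 1.97 and -0.54 in VEH, 5.86 and 5.41 in PEAK_140, 3.64 and 3.57 in NADIR_180, 5.76 and 5.74 in CONS_140 and 5.77 and 5.65 in CONS_180. This was the only one of the 20 regions that passed in NADIR_180 against VEH (2.89 ± 0.72), with 2 VEH libraries that lay far apart. The PEAK_140 difference was 4.92 ± 0.72 (adjusted p = 0.000382, limma), and CONS_180 exceeded NADIR_180 by 2.11 ± 0.72 (adjusted p = 0.0387). In the main tests, Baat passed downward in pSer2 Pol2 in PEAK_140 only and in RNA under CONS only, so the 2 calls came from different patterns. A region 13655 bases before the Baat start (chr5:64790760-64791287) read -0.57 and 1.67 in VEH, 4.94 and 3.41 in PEAK_140, 1.52 and 2.22 in NADIR_180, 5.14 and 5.00 in CONS_140 and 3.29 and 3.84 in CONS_180. This region gained tags in PEAK_140 (3.62 ± 0.84, adjusted p = 0.00405, limma). Gain of GR was thus seen near members that rose and near members that fell. Among the latter was also Cyp7a1, whose RNA fell under CONS while its pSer2 Pol2 rose in CONS_140. CONS_180 against NADIR_180 did not pass there (1.70 ± 0.84, adjusted p = 0.118).

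At the export pump Abcb11, a region 3407 bases before the start (chr3:55591041-55591666) read -0.73 and -0.90 in VEH, 4.50 and 3.71 in PEAK_140, 1.94 and -0.51 in NADIR_180, 3.77 and 3.87 in CONS_140 and 3.72 and 3.76 in CONS_180. PEAK_140 exceeded VEH by 4.92 ± 0.82 (adjusted p = 0.000726, limma) and CONS_180 exceeded NADIR_180 by 3.03 ± 0.82 (adjusted p = 0.0171). A region over the promoter, 105 bases before the start (chr3:55587734-55588369), split at the peak into 5.00 and -0.47, and PEAK_140 did not pass there (3.26 ± 1.53, adjusted p = 0.0761). It read 3.19 to 4.04 in the 4 CONS libraries. Neither pSer2 Pol2 nor RNA of Abcb11 passed in any comparison, so GR gained at this gene without a detected change in either readout. At Nr1h4, the region 10062 bases before the nearer start (chr7:30114882-30115507, intron 1) read 4.47 and 3.30 in PEAK_140 against -0.73 and -0.90 in VEH (4.70 ± 1.18, adjusted p = 0.00589), and its nadir libraries split at 3.60 and -0.51.

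**Figure D4:**
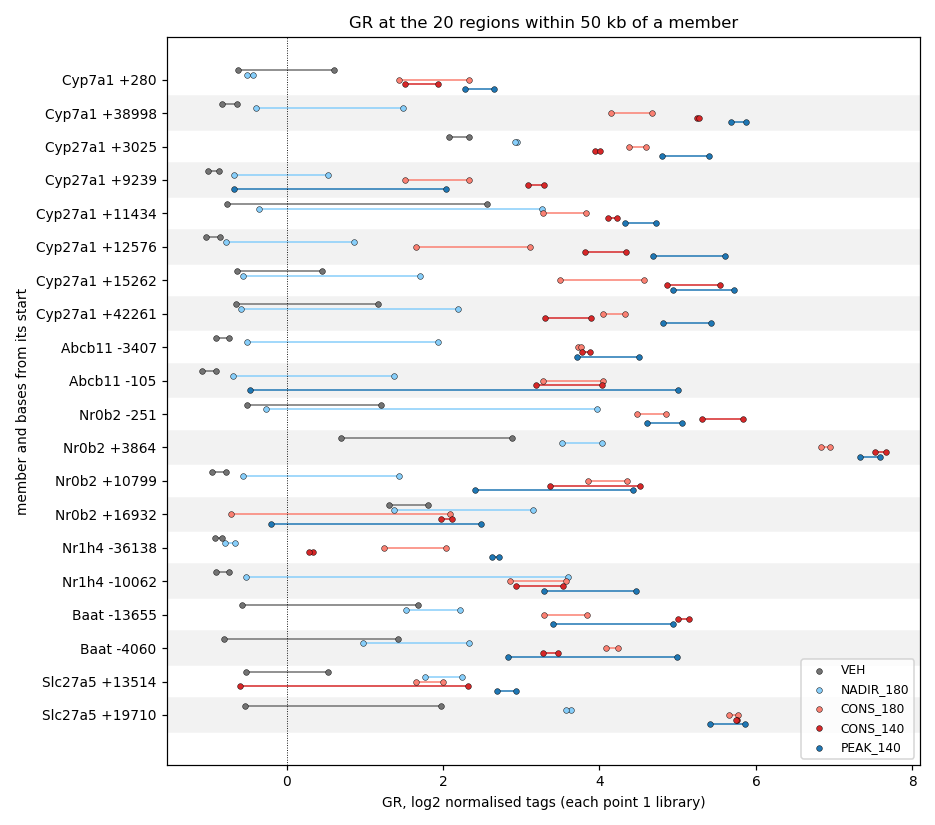
GR at the 20 regions in log2 normalised tags, each point 1 library and each line joining the 2 libraries of a group, labelled by gene and by bases from its start, with 0 dotted. PEAK_140 and both CONS groups lie to the right of VEH at nearly all regions, the strongest being Nr0b2 +3864 (7.33 to 7.66 in PEAK_140 and CONS_140), and long nadir or peak lines, as at Abcb11 -105 (-0.47 and 5.00), mark libraries that disagree.

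GR was compared in the same way, over regions that entered mostly through groups where GR was high, with few from NADIR_180. PEAK_140 against NADIR_180 passed in 12 of 20 regions beside 69.3% of all regions, and CONS_180 against NADIR_180 in 11 beside 49.6%. PEAK_140 against CONS_140 passed in 0 of 20 beside 0.0502% (limma), with 3 regions and 14.1% of all at an unadjusted p under 0.05, and CONS_140 against CONS_180 in 0 beside 0%, with 0 regions and 4.87% of all at that unadjusted level. The peak-to-nadir difference of PULS minus the difference between the same times of CONS passed in 9 of 20 regions beside 44% of all, with a median of 2.83 log2 units against 3.11 over all regions. GR at these regions read lower at 180 than at 140 min under PULS, and no such difference was detected under CONS. All regions entered mostly through groups where GR was high, so a fall to the nadir was largely set by that choice. The other regions, which fell by about as much, were chosen in the same way and are no separate yardstick. The count of 11 for CONS_180 against NADIR_180 became 7 without NADIR_180 replicate 2, 5 without CONS_180 replicate 1 and 2 without CONS_180 replicate 2. Of the calls given above for that comparison, those at Nr0b2 3864 bases and at Cyp7a1 38998 bases were kept without any 1 of the 4 libraries, those at Cyp27a1 3025 bases and Abcb11 3407 bases were lost without either CONS_180 library, and that at Slc27a5 was lost without any 1 of the 4. The 9 calls for the time courses became 2 without PEAK_140 replicate 1, 3 without CONS_180 replicate 2 and 4 without PEAK_140 replicate 2, CONS_140 replicate 2 or CONS_180 replicate 1.

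Among other genes of bile acid synthesis and conjugation, 11 of 12 had enough RNA to test. Akr1c14, a hydroxysteroid dehydrogenase, rose under PULS (0.63 ± 0.11, adjusted p = 0.00284, edgeR), from 319 to 384 CPM in vehicle to 529.97 to 566 CPM. Amacr, the racemase of side-chain oxidation, fell under PULS (-1.05 ± 0.27, adjusted p = 0.0351) and under CONS (-1.35 ± 0.27, adjusted p = 0.00351). It read 279, 662 and 290 CPM in PULS VEH against 186 to 209 CPM in PULS CORT, so PULS VEH replicate 2 stood far above the others. Under CONS it read 384 to 498 CPM in vehicle against 123 to 232 CPM. The other 9 did not pass in either pattern. That makes 2 of 11 under PULS and 1 of 11 under CONS, beside 4.23% and 9.2% of all genes. The median change of the list was -0.04 under PULS and -0.0011 under CONS. At pSer2 Pol2, 1 of 12 passed in PEAK_140 against VEH (0.961% of genes), Akr1d1, the steroid 5-beta-reductase of both routes, with 9.53 and 9.41 in VEH and 6.48 and 7.60 in PEAK_140 (-2.43 ± 0.37, adjusted p = 0.0105, limma). Akr1d1 was back at 9.28 and 9.33 at the nadir and so also differed between peak and nadir (-2.26 ± 0.37, adjusted p = 0.0232).

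Among other transporters, 11 of 13 were tested at the RNA level and those that passed all fell, 1 under PULS (4.23% of genes) and 2 under CONS (9.2%). Slc10a2, the apical sodium-dependent carrier best known from ileum and bile ducts, went from 10.99 to 18.4 CPM in PULS VEH to 3.45 to 3.71 CPM in PULS CORT, a change of -2.05 ± 0.29 (adjusted p = 0.000626, edgeR). Under CONS it went from 9.41 to 17.4 CPM to 1.55 to 3.25 CPM (-2.64 ± 0.30, adjusted p = 2.16e-05), so its RNA was 4.15-fold and 6.24-fold lower. No pSer2 Pol2 value above 0.00 was listed over Slc10a2 in any library, so its RNA change has no matching polymerase reading. Slco1b2, a basolateral uptake carrier, fell under CONS (-0.69 ± 0.12, adjusted p = 0.00133). At pSer2 Pol2, 3 of 10 fell in PEAK_140 against VEH, where 0.961% of genes passed: Slco1b2 (8.67 and 8.51 to 6.47 and 6.23), Slco1a4 (6.02 and 5.68 to 3.64 and 3.63) and Abcc2, the canalicular conjugate pump (9.83 and 9.43 to 7.94 and 8.01). Slco1b2 was at 8.62 and 8.70 in CONS_140, and it was lower in PEAK_140 than there (-2.31 ± 0.30, adjusted p = 0.0473, limma).

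Among other control genes, 15 of 17 were tested at the RNA level and those that passed all rose. Under PULS, where 4.23% of genes passed, they were Nr1i2, the xenobiotic receptor PXR, Ppargc1a, a coactivator of fasting genes, and Foxo1. Under CONS these 3 rose with Nr1i3, Ppara and Nr1d1, 6 of 15 beside 9.2% of genes, and the median change of the list was 0.11 under PULS and 0.55 under CONS. Ppargc1a went from 17.4 to 24.1 CPM to 149 to 175 CPM under CONS (2.93 ± 0.21, adjusted p = 1.83e-07, edgeR) and from 17.7 to 29.9 CPM to 32.6 to 58.5 CPM under PULS (0.98 ± 0.21, adjusted p = 0.0122). It was the only gene of these lists whose response differed between patterns (1.95 ± 0.29, adjusted p = 0.0323). In CONS CORT against PULS CORT, 5 genes of the list were higher (0.887% of genes passed), namely Ppargc1a, Nr1i2, Ppara, Nr1d1 and Nr5a2, the receptor that activates Cyp7a1 (271 to 327 CPM against 136 to 198 CPM, 0.82 ± 0.16, adjusted p = 0.021). At pSer2 Pol2, 3 of 16 rose in CONS_140 against VEH, where 0.806% of genes passed: Nr1i2 (1.89 ± 0.33, adjusted p = 0.0249, limma), Nr1i3 (2.09 ± 0.34, adjusted p = 0.0166) and Foxo1 (2.57 ± 0.40, adjusted p = 0.0126).

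**Figure D5:**
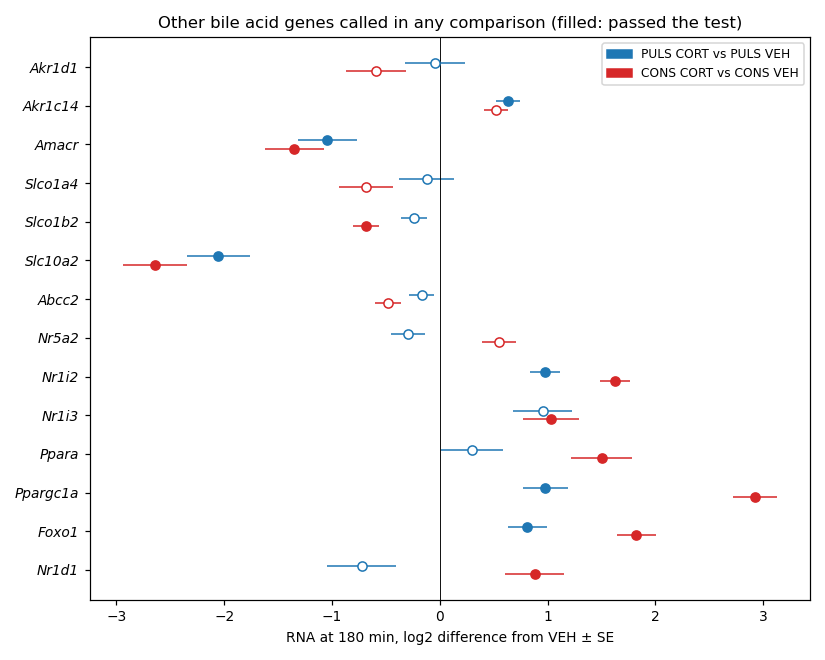
Log2 RNA difference from the pattern's own vehicle at 180 min, with its SE, for the other bile acid genes that passed in any RNA or pSer2 Pol2 comparison, filled where the RNA test was passed (n = 3 samples a group). Slc10a2 lies at -2.05 and -2.64, and the control genes Nr1i2, Ppargc1a and Foxo1 lie right of 0 in both patterns, with Ppargc1a at 2.93 under CONS.

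The labels of treatment and tissue were checked. The GR targets Fkbp5, Per1, Tsc22d3 and Zbtb16 rose in RNA in both patterns, 4 of 4. Hepatocyte markers summed to 135036 to 181759 CPM over 6 genes, with no gene of the list passing. The bile duct marker Krt19, the macrophage marker Cd5l and the ileal marker Fabp6 were at 0 reads in every sample, Krt7 and Sox9 were at 0.622 CPM or less, and Epcam ran from 7.38 to 14.6 CPM. The 4 cholangiocyte genes summed to 7.75 to 14.6 CPM and none passed. Macrophage markers summed to 207 to 374 CPM over 5 genes, endothelial markers to 228 to 317 CPM over 3 and lymphocyte markers to 35.8 to 74.3 CPM over 3, with none passing in any comparison. The 3 ileal genes summed to 1.84 to 18.4 CPM, nearly all of it Slc10a2, the only one that passed. The 4 stellate cell genes summed to 133 to 167 CPM in CONS CORT against 187 to 198 CPM in CONS VEH, and to 135 to 174 CPM in PULS CORT against 195 to 243 CPM in PULS VEH, most of it Reln (121 to 229 CPM). One of them, Dcn, rose under CONS (1.16 on the log2 scale, adjusted p = 0.0359, edgeR). These sums moved with CORT in the same direction in both patterns, and their part in the falls of Cyp7a1, Cyp7b1, Baat and Slc10a2 was not tested. Depth was 3956379 to 7777219 counted reads a sample for RNA, 4938473 to 9326927 tags for pSer2 Pol2 and 2051977 to 6715803 tags for GR.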

How the data were processed

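Adrenalectomised rat livers were assayed by RNA-Seq (12 samples) and by ChIP-Seq of GR and pSer2 Pol2 (10 libraries each, with inputs). Per the labels and methods, the authors aligned reads to rn6 (ChIP trimmed with Trimmomatic 0.36 and aligned with bowtie2, with STAR also listed among their tools), counted RNA with featureCounts 1.6.2 and made ChIP tags and regions with HOMER 4.9.1. The deposited RNA values are raw counts per gene. The deposited ChIP values are log2 normalised tags (regularised log of DESeq2, as far as the values show) per region and library. Folds given for ChIP are differences of these values converted from log2, so they are not ratios of tag counts. The methods scale GR to tags in binding regions whereas the file headers name total tags. The authors' own fold changes and p-values in the deposited tables were not used. The 5 deposited GR peak lists, 1 per group with replicates merged, served for overlap of positions only.

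RNA was fitted with edgeR 4.0.16 in R 4.3.3 (TMM, quasi-likelihood, all 12 samples, genes with more than 10 reads in all), and ChIP values with limma 3.58.1 (all 10 libraries of an assay, variance trend). pSer2 Pol2 was read over regions of at most 10 kb, without strand, and 22684 regions with no spread were left out. A feature passed at adjusted p under 0.05 over all features and over 1.5-fold. The scripts were tested on simulated data. RNA groups are separate samples, and p-values measure the spread between these samples or pools. Named genes were the 10 members, every GR region within 50 kb, and genes of 3 bile acid lists that passed in any comparison. Members and lists were chosen with earlier results of these data known. Alternatives included DESeq2 1.42.0, other filters and scalings, other windows, a replicate block and leaving out each library.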

Additional observations from a re-analysis of the deposited data

Results flagged for a closer look

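GR at 9 of the 20 regions near these genes had a change between 140 and 180 min that differed between the 2 infusion patterns, by the test of that difference itself (limma, adjusted p under 0.05 over all 3981 regions and over 1.5-fold). Over all regions the share was 44%, so the count does not set these genes' regions apart. The value given is the log2 change from nadir to peak under PULS minus the log2 change between the same times under CONS, with 2 libraries a group. At Cyp7a1 it was 3.09 at the region in intron 1 (280 bases from the start, adjusted p = 0.0391) and 4.38 at the region 38998 bases away (adjusted p = 0.0113). At Cyp27a1 it was 2.68 at 3025 bases (adjusted p = 0.0157), 3.42 at 12576 bases (adjusted p = 0.0395), 3.58 at 15262 bases (adjusted p = 0.0416) and 4.902 at 42261 bases (adjusted p = 0.0232). At Abcb11 it was 3.31 for the region 3407 bases before the start (adjusted p = 0.0462), at Nr0b2 2.98 for the region 3864 bases after it (adjusted p = 0.0261), and at Nr1h4 4.72 for the region 36138 bases before the farther start (adjusted p = 0.00869). All 9 were positive, beside 1735 of the 1751 regions that passed in the whole set. Few regions came from nadir peaks, so a positive sign was favoured by how the regions were chosen. Without 1 library at a time, the calls at Cyp7a1 38998 bases away and at Nr1h4 36138 bases away were kept each time, and the other 7 were lost in at least 1 case. With library medians set equal, none of the 9 passed.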

How the results depend on the processing

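With no paired sampling named in the labels, a replicate number was not taken as a pairing. Deviations from the group mean were correlated between same-numbered libraries, with VEH left out for ChIP. The r was -0.04 to 0.06 in RNA, -0.03 to 0.07 for GR and 0.15 to 0.55 for pSer2 Pol2. All pSer2 Pol2 values were positive, and whether same-numbered libraries shared a batch was not tested. A replicate block moved the number of members that passed from 0 to 1 in RNA of CONS CORT against PULS CORT (Cyp7b1), from 0 to 2 in pSer2 Pol2 of PEAK_140 against CONS_140 (Nr0b2 and Slc27a5) and from 1 to 0 for GR in NADIR_180 against VEH, and changed no other count by over 1.5 times. In RNA, DESeq2 and leaving out the low count filter each gave 1 member instead of 0 in CONS CORT against PULS CORT (Cyp7b1 both times) and in the response to CONS minus that to PULS (Baat and Cyp7a1 respectively). Without 1 sample at a time, RNA counts ran from 2 to 6 under CONS, 0 to 1 for the difference of responses and 0 to 2 for CONS CORT against PULS CORT, and were 1 under PULS and 0 for the vehicles throughout. For pSer2 Pol2, fitting only the groups compared gave 0 in PEAK_140 and 0 in CONS_140 against VEH, and no variance trend gave 1 in PEAK_140. Centred library medians gave 1 in CONS_180 against VEH, 1 in PEAK_140 against CONS_140, 1 in PEAK_140 against NADIR_180 and 1 in the difference of time courses. Quantile normalization gave 3 in CONS_180 against VEH and 1 in PEAK_140 against NADIR_180, and keeping the regions above the median mean gave 1, 1 and, for PEAK_140 against CONS_140, 2. Without 1 library the pSer2 Pol2 counts were 0 to 0 in PEAK_140, 0 to 5 in CONS_140, 0 to 4 in PEAK_140 against CONS_140, 0 to 1 in CONS_140 against CONS_180, 0 to 3 for the time courses and 0 elsewhere, the high ends being without CONS_140 replicate 2, where 2372 genes in place of 130 passed in CONS_140. For GR, centred medians and quantile normalization gave 1 and 5 regions in PEAK_140, 1 and 6 in CONS_140, 1 and 4 in CONS_180, 0 and 0 in NADIR_180, 0 and 1 in PEAK_140 against NADIR_180, and 0 and 0 both in CONS_180 against NADIR_180 and for the time courses. Both settings set every library's median region equal by construction, which removes a shared gain. In NADIR_180, no variance trend and only the groups compared gave 0 and a 100 kb window gave 3, and only the groups compared gave 6 in CONS_180 against NADIR_180. Without 1 library the GR counts were 14 to 16, 0 to 4, 11 to 14 and 11 to 13 in PEAK_140, NADIR_180, CONS_140 and CONS_180 against VEH, 8 to 13 in PEAK_140 and 2 to 10 in CONS_180 against NADIR_180, 0 to 1 in PEAK_140 against CONS_140, 0 in CONS_140 against CONS_180 and 2 to 8 for the time courses. Signs turned at single regions. In PEAK_140 against VEH, Cyp27a1 at 3025 bases became -1.72 with centred medians and -1.13 with quantiles, the Nr0b2 promoter region -0.13 and -0.025, and Baat at 13655 bases -0.99 and -0.83. In CONS_180 against NADIR_180, Cyp27a1 at 3025 bases became -1.33 and -0.72, and Slc27a5 at 19710 bases -0.78 with centred medians. For the time courses, Cyp7a1 at 280 bases became -0.30 and -0.89, and with centred medians Cyp27a1 at 3025 bases -0.71, Abcb11 at 3407 bases -0.074 and Nr0b2 at 3864 bases -0.41. With 2 pooled libraries a group, and GR values often near or below 0 in VEH, even large differences could fail to pass. Examples in PEAK_140 against VEH were -1.85 for pSer2 Pol2 over Cyp8b1 and 3.26 for GR at the Abcb11 promoter region. A feature that did not pass may thus still have changed by more than 1 log2 unit.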

Other observations

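For each member whose RNA passed, the named genes with the most similar RNA profile were listed by Pearson's r of log2 CPM over the 12 samples, among 9000 genes with a mean of 5 CPM or more. The samples share the 4 treatment groups, so the values describe these groups as much as the genes, and no test was made. For Cyp7a1 they were Pygl (r = 0.915), which breaks down liver glycogen, Haao (0.906) and AABR07030091.1 (0.879). For Cyp27a1 they were Glt1d1 (0.982), B4galnt1 (0.975) and Nfkbia (0.967), the inhibitor of NF-kappaB. For Cyp7b1 the 3 genes were Casp12, Nectin3 and Tnfrsf11b, with r of 0.917 to 0.918. For Nr0b2, the member with the fewest reads, they were Mlc1 (0.913), the citrate carrier Slc13a5 (0.907) and Wdr46 (0.901). For Baat they were Zfp36l1 (0.967), AABR07031756.1 (0.962) and the glycerol phosphate dehydrogenase Gpd1 (0.959).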
